A study of Mus musculus with 6 samples.

Results

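Interferon-stimulated genes are the genes that cells switch on when type I or type II interferon binds its receptor. A list of 35 such genes was followed across 6 RNA sequencing libraries of mouse RAW264.7 cells, 3 labelled albiflorin and 3 labelled RANKL. Members were found as the rows of the deposited table of raw counts whose gene name is on the list. Of the 35 members, 32 had a row of that name among the 41921 rows of the table, and 27 had enough reads to be tested. Another 5 (Rsad2, Ifit1, Zbp1, Gbp2 and Mx1) had too few reads for a test, and 3 (Ifit3, Oas1a and Sp100) had no row of that name.

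RAW264.7 is a virus-transformed line of mouse macrophages that the cytokine RANKL can drive towards osteoclasts, the cells that resorb bone. Per the labels, wild-type RAW264.7 cells at 3 days after confluence went through an osteoclast differentiation protocol with RANKL at 50 ng/mL. The protocol text of all 6 samples names RANKL, and it does not say whether the cells labelled albiflorin received it together with albiflorin, a monoterpene glycoside of peony root. How much albiflorin was given, and for how long, is not stated in the labels, and no untreated sample was analysed here. Whether the replicates were separate cultures is not labelled, so each p-value reflects only the spread among these libraries, which may be technical.

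Type I interferons act through a receptor made of Ifnar1 and Ifnar2 and the kinases Jak1 and Tyk2. Stat2, once phosphorylated, joins Irf9 in the complex ISGF3, which binds a DNA element called the interferon-stimulated response element (ISRE) before many of the genes. Interferon gamma acts through a different element, the gamma-activated site. Macrophages keep many of these genes at a low tonic level. In the osteoclast lineage, RANKL is known to induce interferon beta, which restrains differentiation.

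The albiflorin libraries held 13708041 to 15200418 counts and the RANKL libraries 13673284 to 15489482. A gene at 0 counts was therefore limited to 0.223 CPM (counts per 1000000 counts of the scaled library) or less in each library, taking 3 counts as the upper limit, which covers counting error only. The summed level of 6 macrophage marker rows was 3280 to 3450 CPM in albiflorin libraries and 3330 to 3540 CPM in RANKL libraries, although Itgam was at 0 counts in every library except RANKL replicate 1, which had 1. Within this list Adgre1 was called lower (log2 fold change, albiflorin over RANKL, −0.30, edgeR adjusted p = 0.00933) and Spi1 higher (0.31, edgeR adjusted p = 0.00232). The summed level of 7 osteoclast markers was 61.3 to 71.0 CPM in albiflorin libraries and 53.0 to 59.5 CPM in RANKL libraries. Acp5, the osteoclast acid phosphatase, was called higher (log2 fold change 0.29, edgeR adjusted p = 0.0371). With each library's trend on mRNA length removed, as described below, Acp5 was at 0.08 (edgeR adjusted p = 0.632) and was not called. In that fit Adgre1 (−0.28, edgeR adjusted p = 0.0144) and Spi1 (0.21, edgeR adjusted p = 0.0169) stayed called. Calcr was at 0 in all 6 libraries and Ctsk, the main collagen-degrading protease of osteoclasts, had 8 to 14 counts in albiflorin libraries and 5 to 8 counts in RANKL libraries. Fibroblast markers summed to at most 0.396 CPM with albiflorin and 0.382 CPM with RANKL, and lymphocyte markers to at most 0.0703 CPM with albiflorin and 0.255 CPM with RANKL. In bulk libraries a smaller share of cells that express a gene and less RNA of it per cell cannot be told apart, and whether these marker levels had a part in any result below was not tested.

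The DNA around the start sites of the members was searched for the elements through which interferon acts. The window of 250 bases before to 50 bases after each start in RefSeq's promoter table (GRCm38.p6) was searched on both strands for the ISRE core, which reads GAAA, any 2 bases and GAAA again, and overlapping matches were counted separately. It was found for 14 of the 28 members in the table (50.0%), against 1079 of all 27025 genes in it (3.99%). The gamma-activated site TTCNNNGAA, searched in the same way, was found for 8 of the 28 members (28.6%), against 9.55% of all genes. The upstream bases of 4 members are shown because they stand for the 3 kinds of result described next: Isg15 and Bst2 were called higher with albiflorin, Stat2 was called lower, and Ifit1 had almost no reads. Capitals mark the ISRE cores, which read TTTC, 2 bases and TTTC where the match is on the opposite strand. The windows are chr4:156200819-156201068 (minus strand) for Isg15, chr8:71537473-71537722 (minus strand) for Bst2, chr10:128270248-128270497 (plus strand) for Stat2 and chr19:34640639-34640888 (plus strand) for Ifit1.
Isg15: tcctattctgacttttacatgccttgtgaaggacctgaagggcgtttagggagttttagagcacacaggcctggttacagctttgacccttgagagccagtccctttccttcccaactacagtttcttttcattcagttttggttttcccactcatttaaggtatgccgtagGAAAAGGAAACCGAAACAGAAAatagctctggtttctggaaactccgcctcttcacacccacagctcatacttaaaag
Bst2: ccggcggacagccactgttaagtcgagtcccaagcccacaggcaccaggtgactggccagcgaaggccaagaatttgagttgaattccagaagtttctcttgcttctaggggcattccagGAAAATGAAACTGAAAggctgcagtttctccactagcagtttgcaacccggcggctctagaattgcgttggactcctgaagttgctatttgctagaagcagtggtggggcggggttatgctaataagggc
Stat2: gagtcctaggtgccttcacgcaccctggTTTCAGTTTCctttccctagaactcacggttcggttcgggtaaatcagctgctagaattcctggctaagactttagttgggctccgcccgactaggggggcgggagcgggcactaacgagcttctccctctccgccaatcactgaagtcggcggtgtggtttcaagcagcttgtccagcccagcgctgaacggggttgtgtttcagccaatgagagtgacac
Ifit1: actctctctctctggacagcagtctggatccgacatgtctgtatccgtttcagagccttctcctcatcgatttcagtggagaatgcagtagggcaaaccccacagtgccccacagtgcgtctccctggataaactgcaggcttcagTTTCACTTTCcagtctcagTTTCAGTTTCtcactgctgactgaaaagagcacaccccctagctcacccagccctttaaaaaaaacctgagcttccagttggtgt

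Isg15 carried 3 overlapping cores whose first bases lay 78, 72 and 66 bases before the start. Bst2 carried 2 overlapping cores that began 130 and 124 bases before it. Stat2 carried 1 core, 222 bases before its start, and Ifit1 carried 2, at 104 and 85 bases. The cores of Ifitm3 began 2 and 19 bases after the start and are not printed. A match describes the letters only. The core was found for 4 of the 5 members in the table with a mean below 1 FPKM (the authors' values, scaled by gene length and library total), and for 8 of the 20 above it. Among the 4 was Rsad2, whose count row may not stand for the whole gene, as described below. Ifit3 and Oas1a also held cores, but had no row of that name and are in neither class. The 9 tested members with a core had a median log2 fold change of 0.05 (range −0.37 to 1.00, 3 called higher and 2 lower). The 13 tested members whose windows held none had a median of 0.03 (range −0.37 to 0.41, 0 called higher and 2 lower). Another 5 tested members had no promoter in the table: Dhx58, Mx2, Oas2, Parp14 and Parp9. Their median was −0.08 (range −0.22 to 0.24, 0 called higher and 1 lower). Of all tested genes 12.4% were called higher and 11.4% lower, and the 3 members called higher were also the 3 with mRNAs shorter than 1000 bases, a class in which 59.2% of genes were called higher.

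The members stood at very different levels in these cells, whichever the label. On the FPKM scale, which divides counts by listed gene length, Ifitm3, a membrane protein that blocks virus entry, averaged 345.8 FPKM over the 6 libraries (range 273 to 440.2). The order of members given here depends on that listed length, which departs from mRNA length more for some members than for others. The listed length was 6129 bases for Ifi44, with an mRNA of 2910, and 5122 bases for Samd9l, with an mRNA of 5330. Bst2, or tetherin, which holds budding virus at the cell surface, averaged 254 FPKM (229 to 290.0). Samd9l came next at 28.9 FPKM, followed by Adar at 13.8, Parp9 at 13.5, Dtx3l and Eif2ak2 at 12.4 each and Ifi35 at 12.3 FPKM. In all, 2 members were above 100 FPKM, 7 lay between 10 and 100, 15 between 1 and 10, and 8 below 1. Among the 31 pairs of neighbours in this order, the ranges over the 6 libraries were separate in only 6: Bst2 and Samd9l, Samd9l and Adar, Oasl1 and Parp14, Irf7 and Ifih1, Isg15 and Cmpk2, and Xaf1 and Oasl2. The ranges of the other neighbours overlapped, although Ifitm3 stood above Bst2 within each of the 6 libraries.

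**Figure D1:**
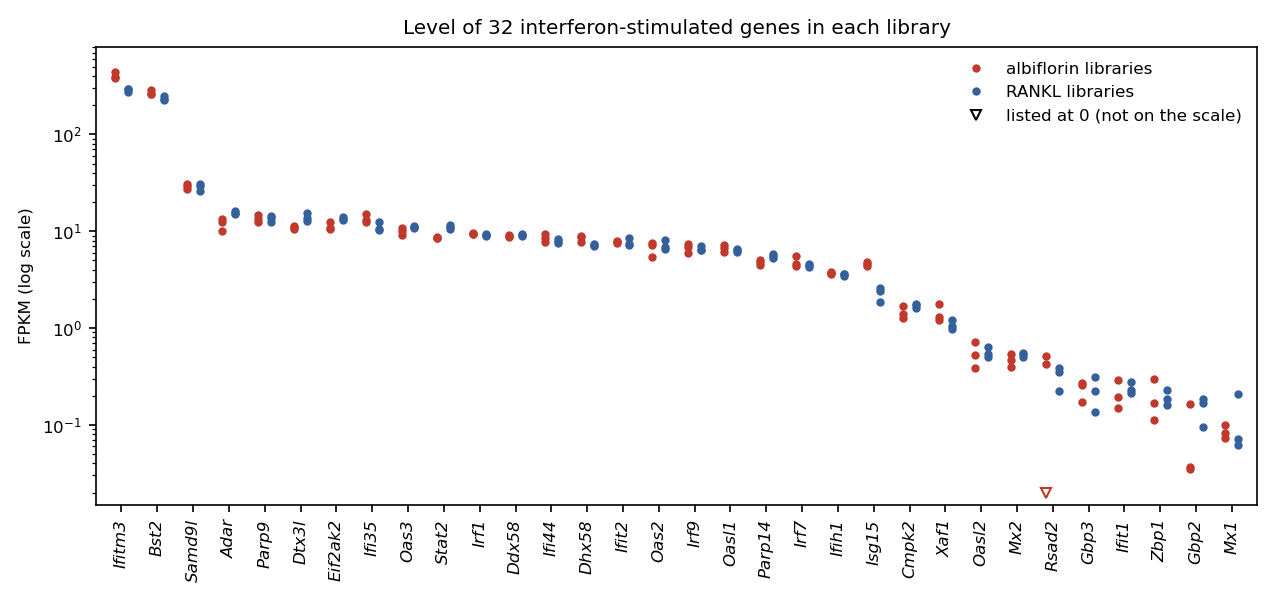
Level of each of the 32 interferon-stimulated genes with a row, in FPKM on a log axis, with 1 point per library (albiflorin and RANKL). Ifitm3 and Bst2 stood above 100 FPKM in all 6 libraries, whereas 8 members, among them Ifit1, Mx1 and Gbp2, averaged below 1 FPKM.

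The interferon-stimulated genes moved in both directions between the labels, and most were not called. Of the 27 tested members 3 were called higher with albiflorin (11.1%), where 12.4% of all 13158 tested genes were (edgeR quasi-likelihood test, adjusted p below 0.05). Another 5 members were called lower (18.5%), against 11.4% of all tested genes. The median log2 fold change, albiflorin over RANKL, was 0.02 over the tested members and 0.0056 over all tested genes, and the members ranged from −0.37 to 1.00. Fold changes were positive for 16 members and negative for 11, and 11 lay within 0.1 of 0. All 3 albiflorin libraries lay above all 3 RANKL libraries in 6 members (22.2%; 20.8% of all tested genes), and below them in 5 (18.5%; 19.3% of all tested genes). Both shares lay near those of all genes.

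The summed level of the 32 members was 1430, 1429 and 1413 CPM in albiflorin libraries, against 1372, 1383 and 1360 CPM in RANKL libraries. Without Ifitm3 and Bst2 the sum was 962, 905 and 951 CPM in albiflorin libraries, against 981, 1020 and 985 CPM in RANKL libraries, so those 2 genes set the direction of the total. They made up 32.7% to 36.7% of it with albiflorin and 26.3% to 28.5% with RANKL. The median deviation of the tested members from their mean over all libraries was 0.09, −0.02 and 0.01 on the log2 scale in albiflorin libraries, and 0.00669, −0.00122 and −0.01 in RANKL libraries. By this measure the 3 albiflorin libraries spanned a wider range than the 3 RANKL libraries and enclosed them.

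**Figure D2:**
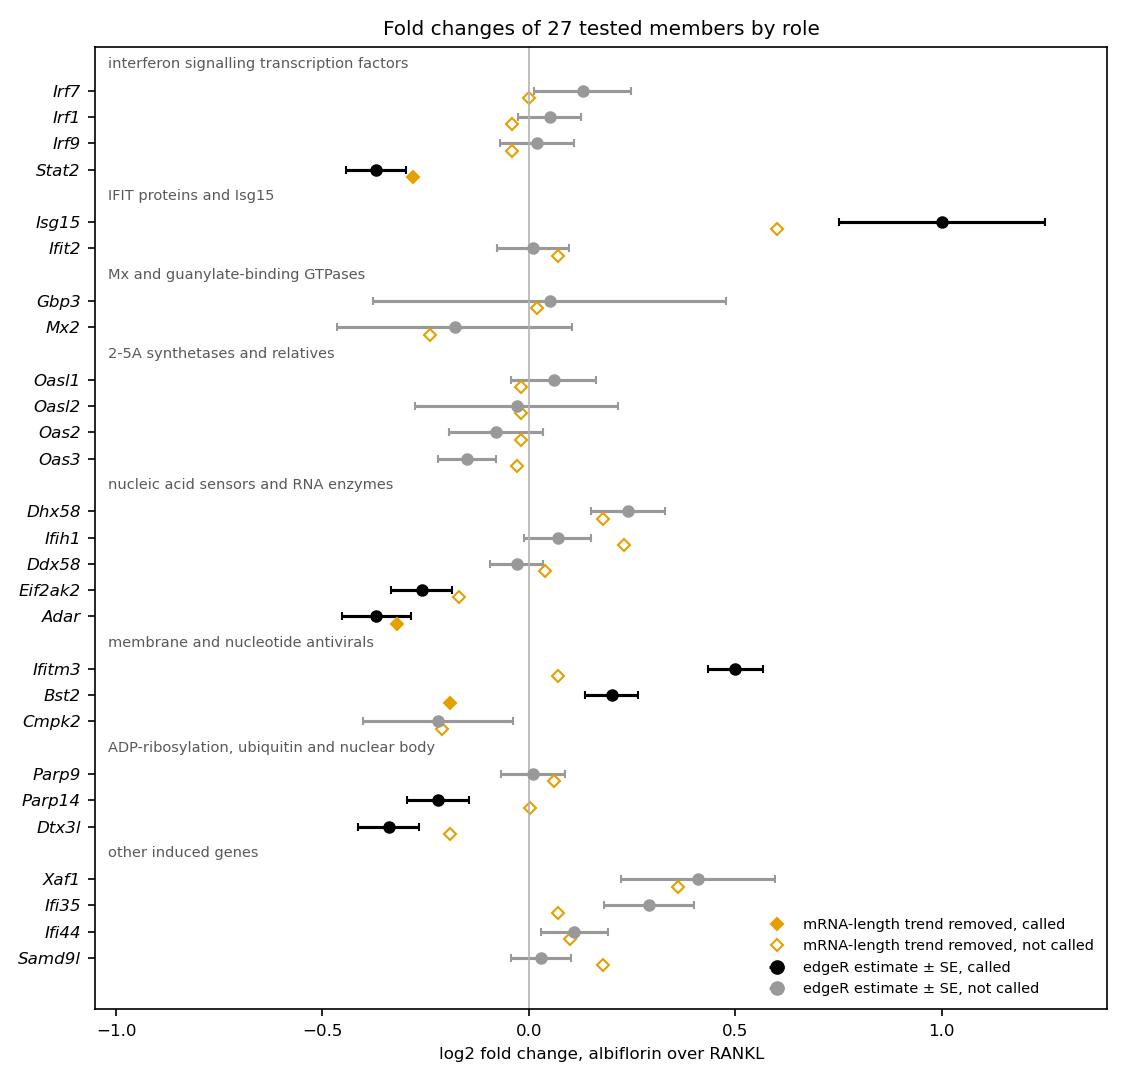
Log2 fold change (albiflorin over RANKL) with its SE for the 27 tested members, grouped by role, before and after the trend with mRNA length was removed. Isg15 stood highest at 1.00 and Stat2 and Adar lowest at −0.37, and most roles held members on either side of 0.

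Among the transcription factors of the pathway 1 of 4 was called, and it was lower, as were 11.4% of all tested genes. Stat2, the part of ISGF3 that activates transcription (MGP_C57BL6NJ_G0018250, chromosome 10, 136461565 to 136490450, plus strand), stood at 39.0, 38.1 and 37.9 CPM in albiflorin libraries, against 47.5, 49.6 and 51.95 CPM in RANKL libraries. The groups did not overlap, and the albiflorin libraries lay closer together than the RANKL libraries. Coordinates of rows are those of the count table, for which no genome build is named. The log2 fold change of Stat2 was −0.37 ± 0.0728 (SE, n = 3 each; edgeR adjusted p = 0.00211). Irf9, which gives ISGF3 its DNA contact, had a log2 fold change of 0.02 (edgeR adjusted p = 0.915), and Irf7, the factor that amplifies interferon production, of 0.13 (edgeR adjusted p = 0.472). Irf1, which interferon gamma induces most directly, averaged 37.8 ± 0.441 CPM with albiflorin and 36.5 ± 1.18 CPM with RANKL (SD, n = 3 each; log2 fold change 0.05, edgeR adjusted p = 0.683). These 3 overlapped between the groups.

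The IFIT proteins, which bind viral RNA and restrain its translation, and Isg15, a ubiquitin-like modifier, are among the members that interferon raises most. Isg15 (MGP_C57BL6NJ_G0029678, chromosome 4, 166270275 to 166271670, minus strand) had 56, 47 and 47 counts in albiflorin libraries, against 25, 31 and 21 counts in RANKL libraries. On the normalised scale it stood at 3.69, 3.49 and 3.30 CPM with albiflorin and at 1.835, 1.975 and 1.417 CPM with RANKL. The groups did not overlap, and both were low: the mean over all libraries was 3.44 FPKM. The log2 fold change was 1.00 ± 0.249 (SE, n = 3 each; edgeR adjusted p = 0.00887). Ifit2 stood at 30.5, 31.5 and 30.0 CPM in albiflorin libraries, against 29.1, 33.3 and 28.7 CPM in RANKL libraries, which overlapped (log2 fold change 0.01, edgeR adjusted p = 0.93). Ifit1 had 6, 7 and 11 counts with albiflorin and 10, 9 and 9 counts with RANKL, too few to test. Isg15 was thus the only one of these 3 whose libraries did not overlap between the groups. The 2 rows without a symbol that the table describes as Ifit3 protein were at 0 counts in all 6 libraries. Those rows overlap each other by 1668 bases and lie inside the row of Ifit1bl1 on the opposite strand, and how reads in overlapping rows were counted is not stated in the labels.

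The Mx proteins and guanylate-binding proteins are large GTPases that attack viral particles and pathogen vacuoles. RNA of the 4 listed members was scarce, with means over all libraries of 0.501 FPKM or less. Mx1, which is disrupted in many inbred mouse strains, had 4, 4 and 5 counts in albiflorin libraries, against 3, 4 and 11 counts in RANKL libraries. Gbp2, a classic target of interferon gamma, had 5, 1 and 1 counts with albiflorin and 5, 3 and 5 counts with RANKL. Neither could be tested, and their counts overlapped between the groups. Mx2, which the table lists as a polymorphic pseudogene, averaged 0.501 FPKM and had a log2 fold change of −0.18 (edgeR adjusted p = 0.695). Gbp3 averaged 0.229 FPKM with a log2 fold change of 0.05 (edgeR adjusted p = 0.952). Among guanylate-binding genes outside the list, Gbp8 averaged 2.15 FPKM. Its groups did not overlap, and it was not called (log2 fold change 0.33, edgeR adjusted p = 0.126). Gbp2b, Gbp4, Gbp5 and Gbp7, also outside the list, had too few reads for a test.

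The oligoadenylate synthetases make the messenger that switches on RNase L when they meet double-stranded RNA. Of the 4 tested members of this family and its relatives none was called in edgeR, and their median log2 fold change was −0.06. Oas3 stood at 71.4, 64.7 and 77.1 CPM in albiflorin libraries, against 81.25, 76.2 and 79.1 CPM in RANKL libraries, with 1 albiflorin library inside the range of the RANKL group (log2 fold change −0.15 ± 0.0714, SE; edgeR adjusted p = 0.147). Without albiflorin replicate 3, Oas3 was called lower (−0.21, edgeR adjusted p = 0.0462). Oas2 (−0.08), Oasl1 (0.06) and Oasl2 (−0.03) had log2 fold changes close to 0, with edgeR adjusted p of 0.673, 0.702 and 0.944. Oas1a had no row of that name. The table describes 2 rows without a symbol as its protein; these overlap each other by 9780 bases, and their log2 fold changes were −0.22 (edgeR adjusted p = 0.177) and 0.09 (edgeR adjusted p = 0.588).

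Of the sensors and enzymes that act on foreign RNA or DNA, 2 of 5 tested members were called lower and none higher in edgeR. Over all tested genes 11.4% were called lower and 12.4% higher. Adar, which edits adenosine to inosine in double-stranded RNA and so keeps a cell's own RNA from the sensors (MGP_C57BL6NJ_G0027863, chromosome 3, 93334986 to 93371286, plus strand), stood at 76.2, 62.1 and 81.55 CPM in albiflorin libraries, against 93.1, 99.5 and 92.6 CPM in RANKL libraries. The groups did not overlap, although albiflorin replicate 2 stood well below the other two. The log2 fold change was −0.37 ± 0.0836 (SE, n = 3 each; edgeR adjusted p = 0.0047). The row of Adar shares 5231 bases with that of Chrnb2 on the opposite strand, and the strand setting of the counting is not stated in the labels. Chrnb2 had 8124 counts over the 6 libraries, against 7354 for Adar, and a log2 fold change of −0.10 ± 0.0638 (SE; edgeR adjusted p = 0.284).

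Eif2ak2, the kinase PKR that halts translation on double-stranded RNA (MGP_C57BL6NJ_G0024446, chromosome 17, 84669649 to 84701328, minus strand), stood at 55.7, 54.4 and 63.7 CPM in albiflorin libraries, against 67.0, 71.75 and 68.8 CPM in RANKL libraries. The groups did not overlap, and the log2 fold change was −0.26 ± 0.073 (SE, n = 3 each; edgeR adjusted p = 0.0183). The call was lost without albiflorin replicate 1 (edgeR adjusted p = 0.0838), albiflorin replicate 2 (0.0647) or RANKL replicate 2 (0.0729). The helicases that sense viral RNA were not called. Ddx58, or RIG-I, had a log2 fold change of −0.03 (edgeR adjusted p = 0.811). Ifih1, or MDA5, stood at 30.1, 30.8 and 31.4 CPM in albiflorin libraries, against 29.65, 29.95 and 28.1 CPM in RANKL libraries, a separation of the groups by a narrow gap with a log2 fold change of 0.07 (edgeR adjusted p = 0.557). Dhx58, or LGP2, which tunes the other two helicases, stood at 28.95, 25.8 and 29.25 CPM in albiflorin libraries, against 23.1, 24.3 and 23.7 CPM in RANKL libraries. Its groups did not overlap either, and its log2 fold change of 0.24 had an edgeR adjusted p of 0.0624, and of 0.0445 without albiflorin replicate 2. Zbp1, a sensor of Z-form nucleic acid that can start necroptosis, had 6, 8 and 15 counts with albiflorin and 9, 9 and 12 counts with RANKL.

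The membrane and nucleotide-directed antivirals held the other 2 members called higher, out of 3 tested, beside 12.4% of all tested genes. Ifitm3 (MGP_C57BL6NJ_G0033699, chromosome 7, 151507517 to 151508701, minus strand) stood at 266, 301 and 263 CPM in albiflorin libraries, against 199.9, 186 and 199.4 CPM in RANKL libraries. The groups were far apart relative to their spread, with means of 277 ± 21.2 CPM with albiflorin and 195.0 ± 8.01 CPM with RANKL (SD, n = 3 each). The log2 fold change was 0.50 ± 0.0665 (SE; edgeR adjusted p = 0.000284). Ifitm3 has close relatives such as Ifitm2, and reads that fit more than 1 of them make its level uncertain.

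Bst2 (MGP_C57BL6NJ_G0034248, chromosome 8, 74679360 to 74682533, minus strand) stood at 203, 223.5 and 199.3 CPM in albiflorin libraries, against 191, 177 and 176 CPM in RANKL libraries. The lowest albiflorin library lay only slightly above the highest RANKL library. The log2 fold change was 0.20 ± 0.0643 (SE, n = 3 each; edgeR adjusted p = 0.0332). This call was lost without albiflorin replicate 1, albiflorin replicate 2, RANKL replicate 2 or RANKL replicate 3, with edgeR adjusted p from 0.0789 to 0.132. Cmpk2, a nucleotide kinase encoded next to Rsad2 in the mouse, stood at 5.47, 4.53 and 4.08 CPM with albiflorin and at 5.21, 5.61 and 5.67 CPM with RANKL, which overlapped (log2 fold change −0.22, edgeR adjusted p = 0.402). Rsad2, or viperin, which makes a chain-terminating nucleotide, had 9, 0 and 7 counts with albiflorin and 6, 4 and 6 counts with RANKL. Its row lies on chromosome 10 with a listed length of 1147 bases, whereas GENCODE M21 places Rsad2 on chromosome 12 with an mRNA of 3782 bases, so the row may not stand for the whole gene.

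Parp9, Parp14 and Dtx3l encode ADP-ribosyltransferases and the ubiquitin ligase that works as a pair with Parp9, and 2 of these 3 were called lower. Of all tested genes 11.4% were, and 28.7% in the class of mRNAs from 4000 to 8000 bases that holds Dtx3l and Parp14. Dtx3l (MGP_C57BL6NJ_G0023189, chromosome 16, 35013145 to 35027492, minus strand) stood at 64.8, 60.8 and 63.8 CPM in albiflorin libraries, against 77.8, 88.1 and 74.1 CPM in RANKL libraries. The groups did not overlap (log2 fold change −0.34 ± 0.0729, SE, n = 3 each; edgeR adjusted p = 0.00363). Parp14 (MGP_C57BL6NJ_G0023188, chromosome 16, 34911026 to 34952635, minus strand) stood at 45.2, 41.6 and 47.0 CPM with albiflorin and at 52.2, 54.55 and 49.7 CPM with RANKL, also without overlap (log2 fold change −0.22 ± 0.0749, SE; edgeR adjusted p = 0.0396). Its call was lost when any 1 of albiflorin replicate 1, albiflorin replicate 2, RANKL replicate 1 and RANKL replicate 2 was left out, with edgeR adjusted p from 0.0872 to 0.136. Parp9, whose row meets that of Dtx3l head to head with 140 shared bases, stood at 53.7, 49.9 and 57.9 CPM in albiflorin libraries, against 56.7, 53.8 and 49.45 CPM in RANKL libraries. These overlapped fully, with a log2 fold change of 0.01 (edgeR adjusted p = 0.921). Sp100, a nuclear body protein, had no row of that name. The main row described as Sp100 protein (MGP_C57BL6NJ_G0016625) stood at 50.1, 56.0 and 57.5 CPM with albiflorin and at 48.4, 53.1 and 52.1 CPM with RANKL, with a log2 fold change of 0.09 ± 0.075 (SE; edgeR adjusted p = 0.42).

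The remaining induced genes were not called in edgeR. Samd9l, a restriction factor that stops translation and can suppress cell growth, stood at 150.2, 159 and 142 CPM in albiflorin libraries, against 133, 159.8 and 150.3 CPM in RANKL libraries (log2 fold change 0.03, edgeR adjusted p = 0.826). Ifi35 stood at 22.7, 26.4 and 21.7 CPM with albiflorin and at 21.8, 17.7 and 18.3 CPM with RANKL (log2 fold change 0.29, edgeR adjusted p = 0.0619). Both overlapped between the groups, and Ifi35 was called higher without albiflorin replicate 3 (edgeR adjusted p = 0.0427) or without RANKL replicate 1 (edgeR adjusted p = 0.0318). Xaf1, a promoter of apoptosis, stood at 8.375, 5.72 and 6.05 CPM with albiflorin and at 4.62, 5.67 and 4.925 CPM with RANKL, with albiflorin replicate 1 the highest and only a narrow gap between the groups (log2 fold change 0.41 ± 0.187, SE; edgeR adjusted p = 0.132). Ifi44 had a log2 fold change of 0.11 (edgeR adjusted p = 0.353).

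**Figure D3:**
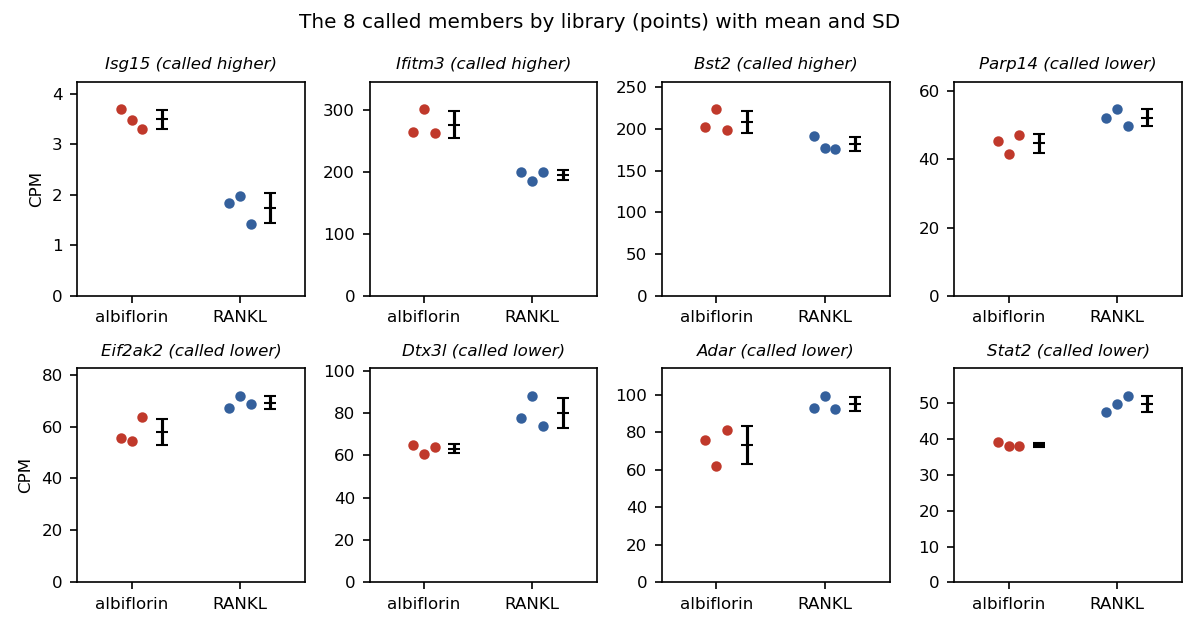
CPM in each library for the 8 called members, with albiflorin left of RANKL, and beside the points the mean and SD (n = 3 each). The groups do not overlap in any of the 8, and the gap is narrow for Bst2, Parp14 and Eif2ak2.

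The direction of the called members went with the length of their mRNA, and so it did across all genes. The 3 members with mRNAs shorter than 1000 bases were the 3 called higher: Isg15, Ifitm3 and Bst2, of 756, 678 and 792 bases. In that class 59.2% of 611 genes were called higher and 0.818% lower, and the median log2 fold change was 0.38, against 0.50 for the 3 members. Of the 7 members between 4000 and 8000 bases 4 were called lower (Stat2, Eif2ak2, Dtx3l and Parp14), in a class in which 28.7% of 2872 genes were called lower and 1.78% higher. The median log2 fold change in that class was −0.14, against −0.22 for the 7 members. The 15 members between 2000 and 4000 bases had a median of 0.01, as did the 4442 genes of their class, and Adar was the only one of them called. Across genes, which are not independent replicates and share the same 6 libraries, fold change and mRNA length had a rank correlation of −0.695 over the 27 tested members and −0.621 over 10694 genes. What sets this slope was not tested.

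**Figure D4:**
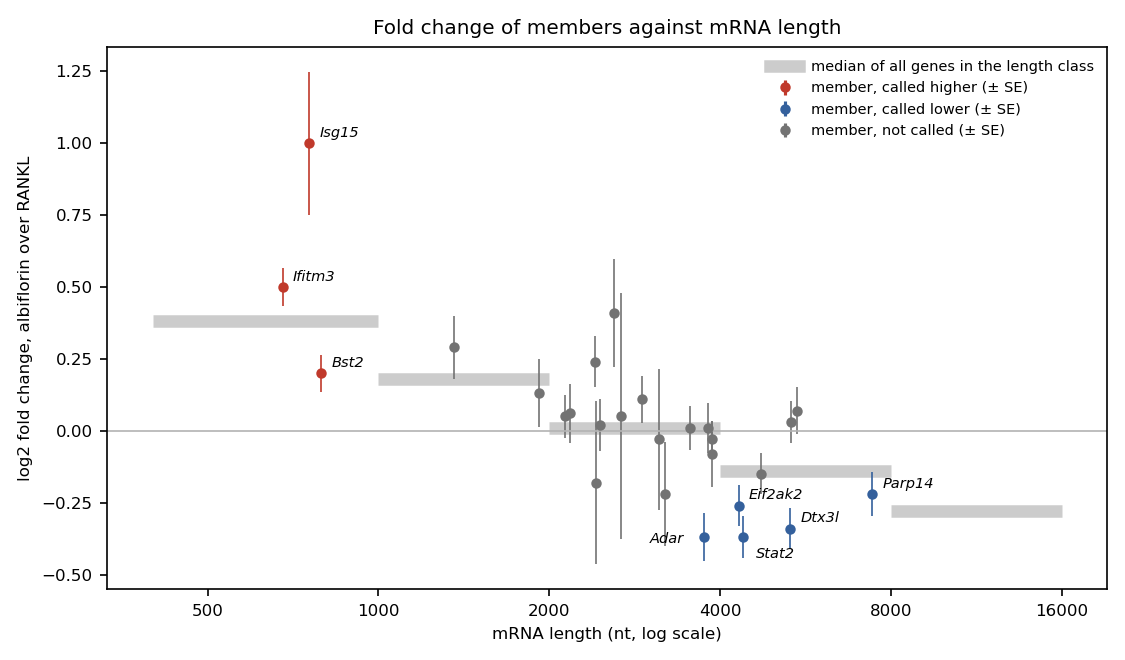
Log2 fold change (albiflorin over RANKL) against mRNA length in bases on a log axis, for the 27 tested members (points with SE), with the median of all genes in each length class as a grey line. Members and class medians both slope downwards, with a rank correlation of −0.695 for the members and −0.621 for all genes.

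With each library's trend on mRNA length removed, 0 members were called higher, where 4.86% of all tested genes were, and 3 were called lower (11.1%), where 5.53% were. Stat2 (log2 fold change −0.28, edgeR adjusted p = 0.0188) and Adar (−0.32, edgeR adjusted p = 0.0119) stayed lower. Bst2 changed sign and was called lower (−0.19, edgeR adjusted p = 0.0327). Isg15 kept a log2 fold change of 0.60 without passing (edgeR adjusted p = 0.15), and Ifitm3 was left with 0.07 (edgeR adjusted p = 0.388). Dtx3l (−0.19, edgeR adjusted p = 0.0542) and Eif2ak2 (−0.17, edgeR adjusted p = 0.0999) no longer passed, and Parp14 was at 0.00296 (edgeR adjusted p = 0.987). With the trend on the gene length listed in the table removed in its place, 0 members were higher (7.18% of all tested genes) and 5 lower (7.96%): Adar, Bst2, Dtx3l, Eif2ak2 and Stat2. The main row described as Sp100 protein is not counted in these numbers, as it has no symbol. It was called higher with the gene-length trend removed (0.22, edgeR adjusted p = 0.0463). In the mRNA-length fit it did not pass (0.22, edgeR adjusted p = 0.0558). Among the 8 called members, Stat2 and Adar were thus the 2 that kept call and direction under all 16 alternatives.

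The genes that make and carry the interferon signal were examined next, as lists of pathway members, whose counts stand beside the 12.4% called higher and 11.4% called lower of all tested genes. No ligand could be tested: of 9 interferon genes with a row, Ifnk alone had any reads, 3 counts in RANKL replicate 1 and 0 elsewhere, and Ifnb1 was at 0 counts in all 6 libraries. Of 5 tested receptor genes 2 were called higher and 0 lower in edgeR, with a median log2 fold change of 0.03. Il10rb, which receptors for interferon lambda and interleukin-10 share, had a log2 fold change of 0.26 ± 0.0873 (SE; edgeR adjusted p = 0.0393). Ifngr1, the ligand-binding chain of the interferon gamma receptor, had one of 0.18 ± 0.0636 (SE; edgeR adjusted p = 0.0484). With the mRNA-length trend removed 0 receptors were called, and Il10rb was at 0.12 (edgeR adjusted p = 0.393) and Ifngr1 at 0.08 (edgeR adjusted p = 0.39). The type I receptor chains were not called, with log2 fold changes of −0.13 for Ifnar1 (edgeR adjusted p = 0.214) and 0.00649 for Ifnar2 (edgeR adjusted p = 0.961).

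Of the 5 JAK and STAT genes downstream 1 was called, lower, and their median log2 fold change was −0.13. Jak1 stood at 203, 207 and 233 CPM in albiflorin libraries, against 248, 256 and 234.0 CPM in RANKL libraries, so that the groups nearly touched (log2 fold change −0.20 ± 0.0668, SE; edgeR adjusted p = 0.0412). With the mRNA-length trend removed Jak1 did not pass (−0.07, edgeR adjusted p = 0.411), and 0 genes of the list were called. Tyk2 was not called (−0.13, edgeR adjusted p = 0.122). Of 6 tested negative regulators 3 were called higher and 0 lower, with a median of 0.18. Socs3, an inhibitor of JAK kinases that answers mainly to the interleukin-6 family, stood at 38.5, 34.8 and 45.5 CPM in albiflorin libraries, against 23.05, 22.9 and 25.8 CPM in RANKL libraries. Its groups were well apart, with a log2 fold change of 0.73 ± 0.102 (SE; edgeR adjusted p = 0.000368) that was 0.68 with the mRNA-length trend removed (edgeR adjusted p = 0.00108). The phosphatases Ptpn2 (0.31, edgeR adjusted p = 0.00992) and Ptpn6 (0.21, edgeR adjusted p = 0.0215) were called higher but did not pass with that trend removed. Usp18, which is induced by interferon and shuts its receptor down, had a log2 fold change of 0.14 (edgeR adjusted p = 0.253).

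Of 16 tested genes of pathogen sensing and interferon induction (receptors, adaptors, kinases and transcription factors), 0 were called higher and 4 lower, with a median of −0.06. Tlr9, the endosomal receptor for CpG DNA, stood at 11.5, 10.7 and 16.1 CPM in albiflorin libraries, against 22.7, 20.6 and 20.3 CPM in RANKL libraries. The groups did not overlap, and the log2 fold change of −0.73 ± 0.134 (SE; edgeR adjusted p = 0.00151) was −0.69 with the mRNA-length trend removed (edgeR adjusted p = 0.00367). Mb21d1, the cytosolic DNA sensor cGAS, had a log2 fold change of −0.27 ± 0.0676 (SE; edgeR adjusted p = 0.00988), and −0.19 with the trend removed (edgeR adjusted p = 0.0493). Traf3 (−0.30, edgeR adjusted p = 0.0055) and Trim25 (−0.25, edgeR adjusted p = 0.0169), which relay signals from Toll-like receptors and RIG-I, did not pass once the mRNA-length trend was removed. With the gene-length trend removed Traf3 stayed called (−0.18, edgeR adjusted p = 0.0432) and Trim25 did not (−0.18, edgeR adjusted p = 0.0549).

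Among other interferon-induced genes outside the 35, 49 were tested, of which 10 were called higher and 5 lower, with a median log2 fold change of 0.09. Ifi27, a small mitochondrial and nuclear membrane protein, stood at 177.1, 177.0 and 159 CPM in albiflorin libraries, against 117, 109.8 and 122.5 CPM in RANKL libraries (log2 fold change 0.56 ± 0.066, SE; edgeR adjusted p = 0.000169). Psmb9, a catalytic subunit of the immunoproteasome, had a log2 fold change of 0.50 ± 0.0799 (SE; edgeR adjusted p = 0.000649), and both stayed called with the mRNA-length trend removed, at 0.20 (edgeR adjusted p = 0.0201) and 0.27 (edgeR adjusted p = 0.0127). Ifitm2, the neighbour and close relative of Ifitm3, had a log2 fold change of 0.49 ± 0.0711 (SE; edgeR adjusted p = 0.000388), which like that of Ifitm3 shrank with the trend removed, to 0.05 (edgeR adjusted p = 0.589). Rnf213, a giant ubiquitin ligase with a very long mRNA, had a log2 fold change of −0.49 ± 0.0841 (SE; edgeR adjusted p = 0.000979), and −0.10 with the mRNA-length trend removed (edgeR adjusted p = 0.214). It stayed called with the gene-length trend removed in its place (−0.25, edgeR adjusted p = 0.0146). With the mRNA-length trend removed, 4 of the 49 were called higher (8.16%; 4.86% of all tested genes) and 1 lower (2.04%; 5.53% of all tested genes).

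**Figure D5:**
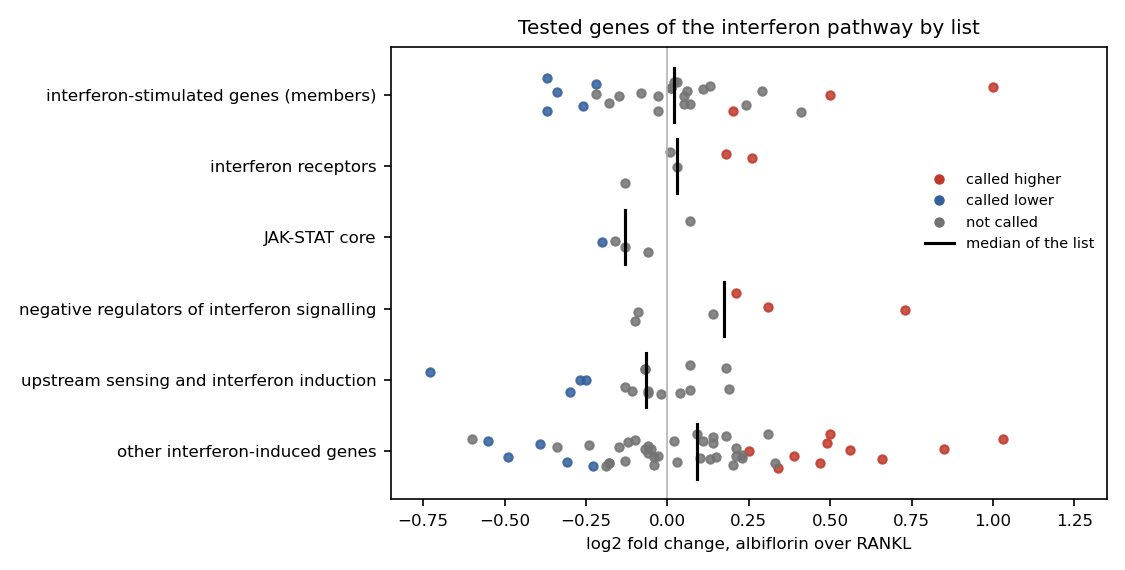
Log2 fold change (albiflorin over RANKL) of every tested gene of the interferon pathway lists, with called genes marked. The called genes of the negative regulators lie above 0, led by Socs3 at 0.73, and those of the upstream sensing list lie below 0, led by Tlr9 at −0.73. Of these called genes, only Socs3, Tlr9 and Mb21d1 stayed called with the mRNA-length trend removed.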

How the data were processed

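RNA from 6 RAW264.7 samples, 3 albiflorin and 3 RANKL, was sequenced. The deposited raw counts are whole-number reads per gene, and the deposited FPKM are those counts divided by listed gene length and by a total per library that was −0.95% to 1.65% from the column total. Per the submitters' processing notes, the tools were HISAT2 2.2.1, featureCounts 2.0.6-p3, DESeq2 1.42.0, fastp and CASAVA 1.8, with no roles given. The gene identifiers carry the prefix of the C57BL/6NJ assembly, whereas RAW264.7 is of BALB/c origin; no genome build or strand setting is named in them. Samples were grouped by title, and columns matched by group letter and number.

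The 35 members, the pathway lists and the tests were chosen with earlier results of these data known. All genes were tested with edgeR 4.0.16 (R 4.3.3): filterByExpr, TMM scaling and the quasi-likelihood F-test with group as the only term, with Benjamini-Hochberg adjusted p below 0.05 as a call. CPM use TMM-scaled library sizes. Named were called members, the 8 with the highest FPKM, those whose groups did not overlap, and up to 4 called genes per pathway list plus Ifnb1, Ifnar1, Ifnar2, Jak1, Tyk2 and Usp18; a gene that this rule also took is not reported here, and any others were chosen after their values were seen. mRNA lengths were those of GENCODE M21 principal transcripts, matched by symbol for 81.3% of tested genes. A lowess trend (span 0.3, fitted on genes above a mean log2 CPM of 3) was removed per library, on listed gene length where no mRNA length was known. Further alternatives were RLE scaling, DESeq2 1.42.0, limma-voom (limma 3.58.1), omitting the filter, a stricter filter (at least 1 CPM in 5 libraries), a block for replicate number, omission of each library in turn, and limma on log2(FPKM + 1) and log2(FPKM + 0.1). The script was tested on simulated counts. Replicates differed beyond sampling noise (chi-square per degree of freedom 3.77 to 9.15), so none was counted as a repeat.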

Additional observations from a re-analysis of the deposited data

How the results depend on the processing

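With each library left out in turn, the members called higher ranged from 2 to 4, those called lower from 3 to 6, and the median log2 fold change of the tested members from −0.02 to 0.07, against 3, 5 and 0.02 with all libraries. Calls over all genes ranged from 1924 (without RANKL replicate 2) to 3397 (without albiflorin replicate 3), against 3127, and were 1961 without albiflorin replicate 1 and 2024 without albiflorin replicate 2. Calls over the pathway lists ranged from 16 (without albiflorin replicate 1) to 29 (without albiflorin replicate 3), against 25. In the main fit these lists held 5, 5, 6, 16 and 49 tested genes, and 12.4% of all tested genes were called higher and 11.4% lower. The members called lower were 3 without albiflorin replicate 1, albiflorin replicate 2 or RANKL replicate 2. With limma on log2(FPKM + 1) or log2(FPKM + 0.1), 2 members were higher, 3 were lower and 16 pathway genes were called in each. Over all 13158 tested genes, 1222 were higher and 901 lower in the first, and 1235 and 909 in the second. The main edgeR fit had 1631 and 1496.

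With the gene-length trend removed, 1993 genes, 0 members higher (not counting the main Sp100 row) and 15 pathway genes were called. With the mRNA-length trend removed these were 1367, 0 and 8, and 3 members were lower. Of all tested genes, 7.18% were called higher and 7.96% lower in the first of these fits, and 4.86% and 5.53% in the second. Bst2 reversed to −0.17 (edgeR adjusted p = 0.0475) and −0.19 (edgeR adjusted p = 0.0327) in these fits, and Parp14 to 0.00296 (edgeR adjusted p = 0.987) in the second. Part of these losses follows from the construction, which subtracts the trend; the cause of the trend was not tested.

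Samples with the same replicate number did not deviate together (correlations 0.0285, −0.0383 and −0.0531), and not every sample correlated best with its own number. No sign of pairing by number was thus seen, although 3 libraries per group cannot exclude it. With the replicate number as a block, 1358 genes were higher and 1214 lower, and 2 members were higher and 4 lower, without Bst2 (edgeR adjusted p = 0.0613) and Parp14 (edgeR adjusted p = 0.0695). RLE scaling, DESeq2, limma-voom and both filters gave 3 members higher and 5 lower each. Of the fold changes of single members under all alternatives, 372 kept direction and side of the threshold, 26 lost their call with the same direction, 4 gained one and 27 changed sign, those of Bst2 and Parp14 and of 10 members that were not called. With libraries left out in turn, log2 fold changes spanned −0.06 to 0.09 for Irf9, −0.20 to 0.37 for Gbp3, −0.04 to 0.09 for Samd9l, −0.03 to 0.09 for Ifit2, −0.18 to 0.04 for Oas2, −0.04 to 0.06 for Parp9 and −0.30 to 0.17 for Oasl2. With the gene-length trend removed, Ddx58 was at 0.08, Oasl1 at −0.03 and Oasl2 at 0.07. With the mRNA-length trend removed, Ddx58 was at 0.04, Oasl1 at −0.02, Irf1 at −0.04 and Irf9 at −0.04. None of these members passed the edgeR threshold in those fits. Low counts limited Isg15, Mx2, Gbp3 and the 5 untested members.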

Other observations

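Beyond the genes named in the report, 11 other interferon-induced genes of the pathway lists were called. Of the 49 tested genes of that list, named ones included, 20.4% were called higher and 10.2% lower. Over all tested genes these shares were 12.4% and 11.4%. The chemokine gene Ccl5 stood at 3.03, 4.76 and 2.95 CPM in albiflorin libraries, against 1.395, 2.23 and 1.55 CPM in RANKL libraries, without overlap (log2 fold change 1.03 ± 0.284, SE; edgeR adjusted p = 0.0153). Isg20, a 3′ exonuclease of single-stranded RNA, stood at 4.95, 5.65 and 3.66 CPM with albiflorin and at 3.82, 1.78 and 2.36 CPM with RANKL, which overlapped (0.85 ± 0.27, SE; edgeR adjusted p = 0.0311). Rtp4, a chaperone of membrane receptors, stood at 13.85, 13.1 and 12.9 CPM with albiflorin and at 8.66, 8.35 and 8.30 CPM with RANKL, with little spread inside either group (0.66 ± 0.121, SE; edgeR adjusted p = 0.00152). It stayed called with the mRNA-length trend removed (0.52, edgeR adjusted p = 0.0121), as did Ifi203, a member of the DNA-binding family that holds the Aim2 sensor (0.29, edgeR adjusted p = 0.012; 0.25 before), and Slfn5 (−0.38, edgeR adjusted p = 0.0363; −0.55 before).

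The immunoproteasome subunit Psmb8 (log2 fold change 0.39, edgeR adjusted p = 0.0039), Ifi27l2a (0.47, edgeR adjusted p = 0.00158) and Slfn2 (0.34, edgeR adjusted p = 0.0119) were called higher but not with the trend removed. Znfx1 (−0.39, edgeR adjusted p = 0.0019), Helz2 (−0.31, edgeR adjusted p = 0.0101) and Pml, the organiser of nuclear bodies (−0.23, edgeR adjusted p = 0.0246), were called lower but not with the trend removed. Ccl5 and Isg20 did not pass with either trend removed.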
